A study of Mus musculus with 6 samples.

Results

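The 30 genes described here mark B cells, T cells, antibody-secreting plasma cells and the tissue of lymph nodes, and their expression was read in RNA sequencing libraries of mouse pancreatic islets. They were taken by gene symbol from the 23179 rows of the expression tables. All 30 had a row: 29 matched by symbol, Igj being the older name of Jchain, and Mzb1 matched through an older symbol that RefSeq lists as its synonym. Islets are the small endocrine organs scattered through the pancreas, and secrete insulin and glucagon. The KO group was 3 libraries from C57BL/6J males, 10 to 14 weeks old, without Ffar3, the gene of a receptor for short-chain fatty acids. The WT group was 3 libraries from wild-type males of that strain and age range. Each library came from islets selected from the pooled isolations of 2 pancreata, so it mixes animals, and the series calls the 3 libraries of a group biological replicates. The sources used here do not give how the Ffar3 allele was made, whether the groups were littermates or when the islets were isolated, so a difference in isolation cannot be told apart from genotype.

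B cells carry the B cell receptor, an antibody held at the membrane together with the signalling chains encoded by Cd79a and Cd79b, and plasma cells are the descendants of B cells that secrete antibody. T cells carry the T cell receptor with the CD3 chains, and CD4 or CD8 beside it. In a lymph node these cells gather in separate zones, drawn by chemokines through receptors such as CCR7 and CXCR5, after entering from the blood through high endothelial venules, whose cells make the mucin GlyCAM-1. The islet itself is built mainly of endocrine and endothelial cells with resident macrophages. In bulk RNA of this kind, fewer cells of a type and less RNA per cell cannot be told apart.

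The printed promoters below are of 5 genes from different arms of the set: a B cell receptor chain, neighbouring chains of the T cell receptor, a surface receptor of T cells, and the venule mucin. Each is the 250 bases before the RefSeq start of transcription on GRCm38.p6, written 5′ to 3′ on the gene's own strand. Capitals mark the letters of 2 searched motifs, the E-box of E proteins (CAGGTG, or CACCTG on the other strand) and a site read by PU.1 and Spi-B (GAGGAAGT, on either strand), factors with known roles in lymphocytes. No capitals overlap.
Cd79a (chr7:24897247-24897496, plus strand): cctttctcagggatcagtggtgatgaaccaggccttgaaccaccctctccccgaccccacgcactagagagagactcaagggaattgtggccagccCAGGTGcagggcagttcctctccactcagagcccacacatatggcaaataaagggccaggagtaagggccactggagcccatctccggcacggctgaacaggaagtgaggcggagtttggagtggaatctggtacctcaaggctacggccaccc
Cd3d (chr9:44981536-44981785, plus strand): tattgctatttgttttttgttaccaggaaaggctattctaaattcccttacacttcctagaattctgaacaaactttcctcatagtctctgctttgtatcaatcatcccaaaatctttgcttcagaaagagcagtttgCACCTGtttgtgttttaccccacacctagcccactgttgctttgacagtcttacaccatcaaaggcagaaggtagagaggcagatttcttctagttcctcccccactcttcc
Cd3g (chr9:44980432-44980681, minus strand): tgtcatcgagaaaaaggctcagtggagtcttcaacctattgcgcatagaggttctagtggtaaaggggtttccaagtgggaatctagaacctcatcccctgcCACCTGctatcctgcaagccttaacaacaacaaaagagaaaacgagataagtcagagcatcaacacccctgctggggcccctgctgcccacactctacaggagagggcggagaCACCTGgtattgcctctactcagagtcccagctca
Cd5 (chr19:10738975-10739224, minus strand): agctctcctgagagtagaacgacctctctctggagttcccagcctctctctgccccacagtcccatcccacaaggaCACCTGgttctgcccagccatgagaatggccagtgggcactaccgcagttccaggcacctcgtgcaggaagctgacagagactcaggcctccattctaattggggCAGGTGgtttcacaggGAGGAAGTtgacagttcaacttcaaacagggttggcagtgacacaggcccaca
Glycam1 (chr15:103565082-103565331, minus strand): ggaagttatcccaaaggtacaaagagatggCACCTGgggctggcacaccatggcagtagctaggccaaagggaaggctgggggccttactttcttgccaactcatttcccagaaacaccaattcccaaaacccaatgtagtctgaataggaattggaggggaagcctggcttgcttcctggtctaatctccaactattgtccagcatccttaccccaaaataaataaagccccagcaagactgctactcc

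RefSeq windows of 250 bases before to 50 after the start were at hand for 20 of the 30 genes. The E-box letters were in a window of 12 of these 20 genes (60.0%), against 22.6% of all 27025 genes with a window. Besides the genes printed, they were in windows of Cd37, Cd3e, Cr2, Fcer2a, Igj, Lck and Ltb. The PU.1 and Spi-B letters were in windows of Btla, Cd37 and Cd5, 15% of the 20 genes, against 3.69% of all genes. The octamer ATGCAAAT, the sequence bound by Oct proteins with the coactivator that Pou2af1 encodes, was in the windows of 0 of the 20 genes on either strand, against 1.97% of all genes. The letters TATAAA on the coding strand were in windows of Fcer2a and Tnfrsf17, 10.0% of the 20 genes, against 9.77% of all genes. These are matches of letters only, and this search was not tested for chance.

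Before the results, the labels and libraries were checked. FPKM scales the fragments of a gene by its transcript length and by a library size, and how that size was set is not given. FPKM summed to 416935, 698280 and 1056344 in KO replicates 1, 2 and 3, against 451899, 429148 and 444624 in WT. The median ratio of each library to the row means (the median-of-ratios factor) ran from 0.995 to 1.005. The libraries were thus level by that measure and not by their sums. KO libraries gave 0, 0 and 0.105 FPKM for Ffar3 in replicate order, and WT libraries 4.69, 5.26 and 6.68 FPKM. The KO libraries were unlike each other in a way the WT libraries were not. Genes of the enzyme-secreting acinar cells made up 5.93%, 35.0% and 49.2% of all FPKM in KO replicates 1, 2 and 3, against 9.23%, 6.17% and 8.41% in the WT replicates. Sequencing depth is unknown. From the spacing of the lowest values, 1 FPKM stood for 119%, 89.4% and 59.6% as many fragments in KO replicates 1, 2 and 3 as in WT replicate 1, and for 108% and 114% as many in WT replicates 2 and 3. Of the low rows, 191 of 601, 110 of 489 and 57 of 368 sat at that ratio in KO. In WT replicates 2 and 3, 220 of 629 and 234 of 643 did, so this scale is rough. By that scale, if the Btla value in WT replicate 1 stood for 1 fragment, Btla rested on about 43.8, 76.5 and 6.17 fragments in KO replicates 1, 2 and 3, against 1 in each WT library. A WT value of 0 is therefore a listing at this depth, not absence. Values below run in the order of replicates 1, 2 and 3.

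The lymphoid set was close to 0 in WT islets and above them in KO replicates 1 and 2. The summed FPKM of the 30 genes was 175, 315 and 33.6 in the KO libraries, against 15.3, 13.2 and 13.1 in the WT libraries. In WT, 28 of the 30 genes stayed under 1 FPKM in every library, all but Cd79a and Cd52, and 8 were listed at 0 in all 3. For all 30 genes, KO replicates 1 and 2 both lay above every WT library, which held for 27.8% of the 17734 rows with a value above 0. For 25 genes KO replicate 3 lay above the WT libraries too, against 22.3% of rows. The other 5 were Cd37, Pax5, Cd8a, Glycam1 and Cd52. For a single gene of 3 against 3 libraries, the exact two-sided permutation test cannot give a p under 0.1.

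**Figure D1:**
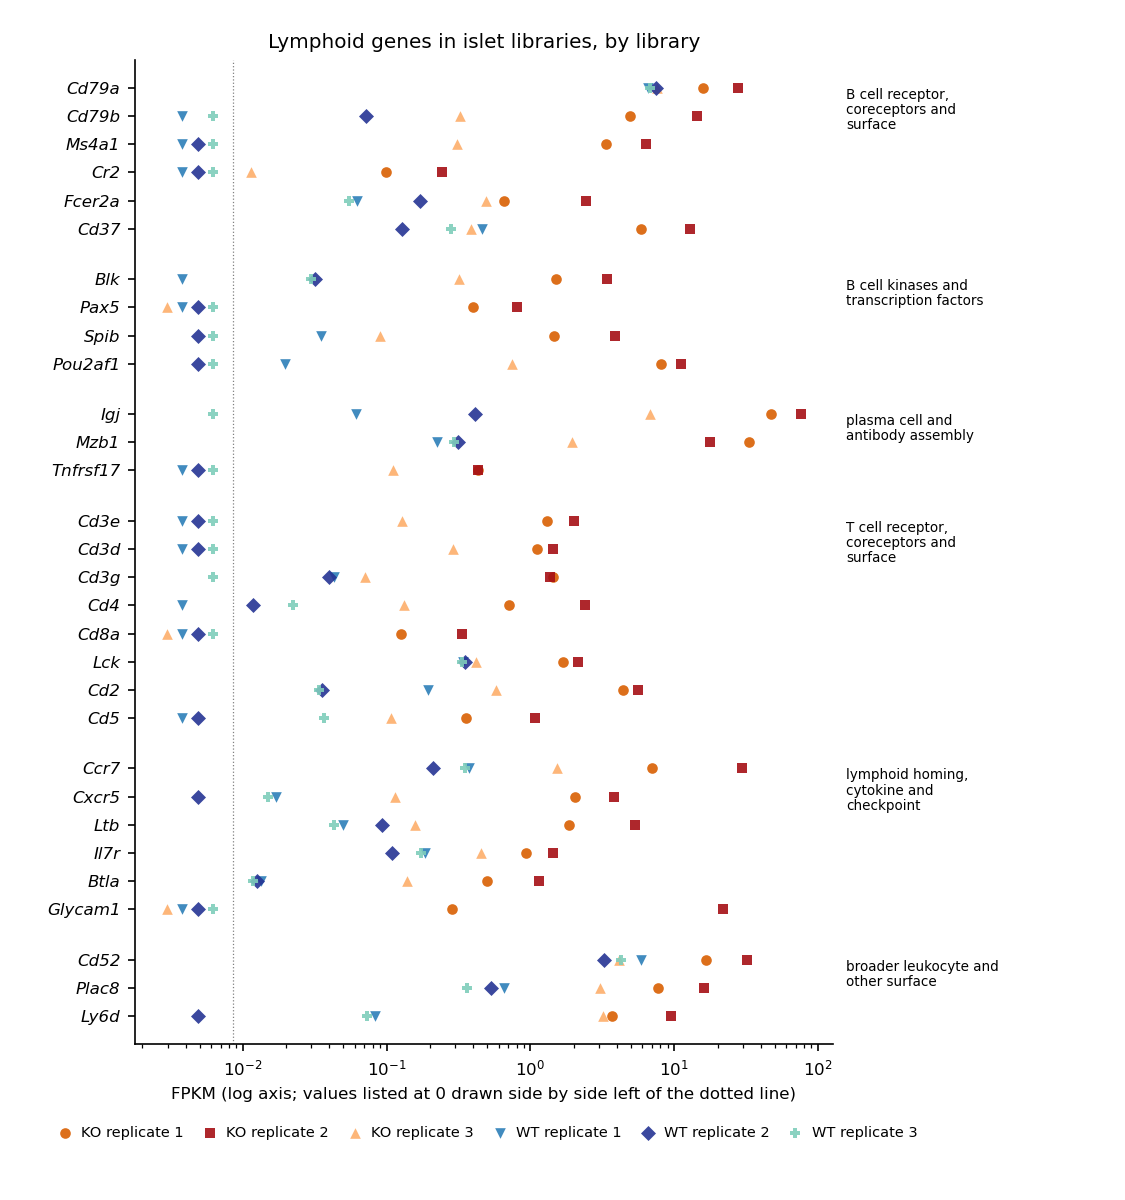
FPKM of each of the 30 genes in each library on a log axis, with KO replicates in warm and WT replicates in cool colours, and values listed at 0 set side by side left of the dotted line. KO replicates 1 and 2 lie to the right of all WT libraries for all 30 genes, and KO replicate 3 is the lowest KO library for all 30.

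With all rows fitted together on log2(FPKM + 1), 8 of the 30 genes were called higher in KO at an adjusted p of 0.05 and 0 were called lower, against 12.7% and 12% of all rows. The 8 were Pou2af1, Igj, Mzb1, Tnfrsf17, Cd3d, Il7r, Plac8 and Ly6d. The median log2 difference, KO minus WT, was 1.24 over the 30 genes (lowest 0.15, highest 4.74) and 0.0031 over all rows. At an unadjusted p under 0.05 in this limma fit, 23 were higher and 0 lower, against 19.5% and 19.8% of all rows. Without KO replicate 3, 26 of the 30 were called higher, against 12% of rows; those not called were Fcer2a, Cd8a, Cd5 and Glycam1. KO replicate 1 alone, set against the WT libraries, gave a log2 difference above 0 for all 30 genes (lowest 0.14, highest 5.40). That single library gives no spread among KO libraries, so its calls are not read here.

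**Figure D2:**
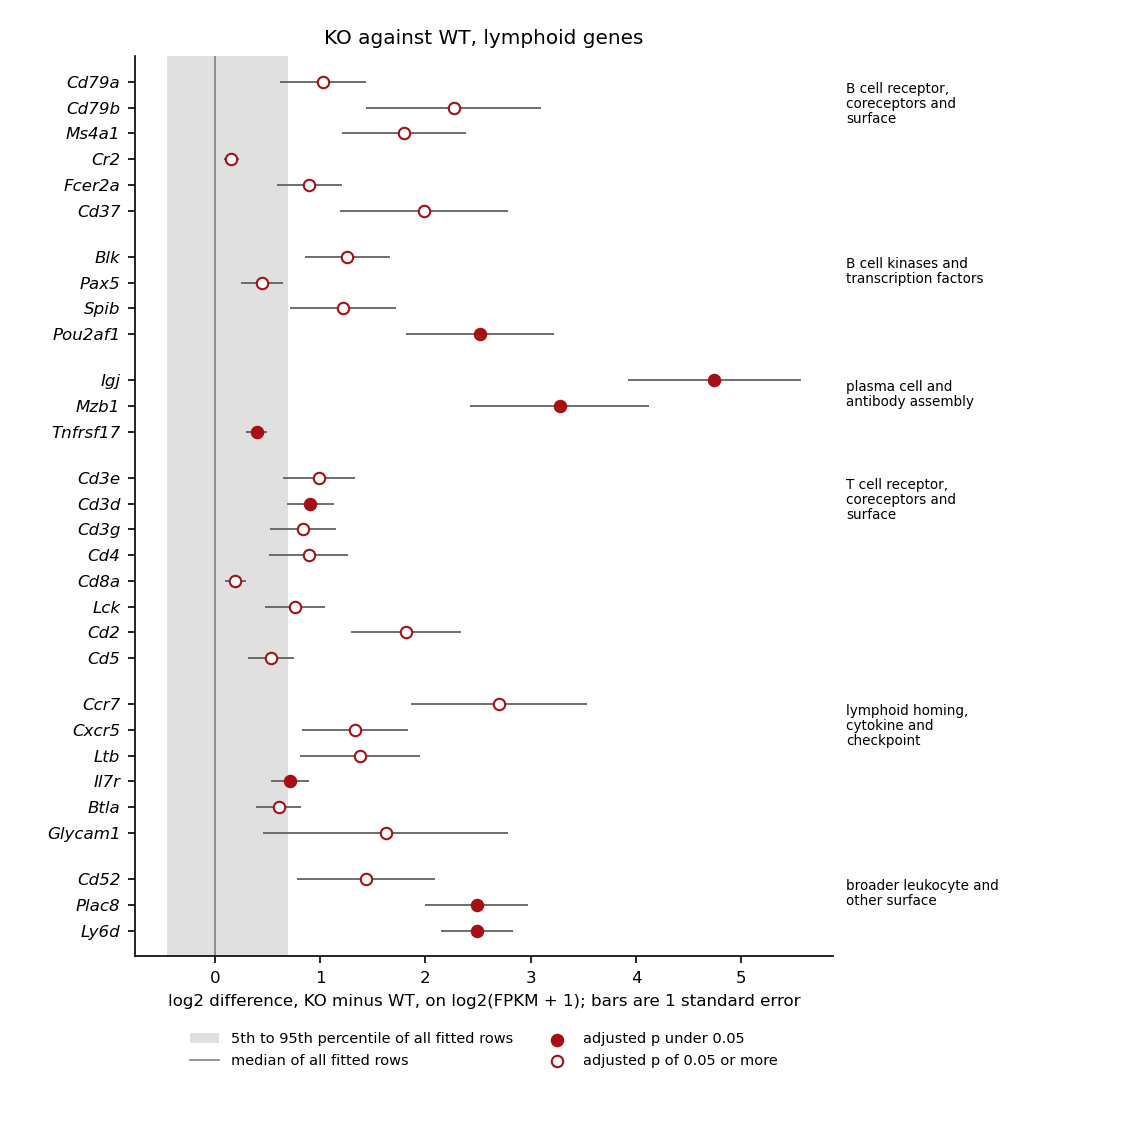
Difference between KO and WT for each of the 30 genes on the log2(FPKM + 1) scale, with bars of 1 standard error; filled points passed an adjusted p of 0.05. The grey band runs from the 5th to the 95th percentile of all fitted rows, -0.46 to 0.70, and 8 points are filled.

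All 3 plasma cell and antibody assembly genes were called higher, against 12.7% of all rows, with a median difference of 3.27 on the log2(FPKM + 1) scale. Their summed FPKM was 185, 216 and 20.2 times the WT mean in the KO libraries. Igj (chr5:88519809-88527891 on GRCm38) encodes the J chain, which joins antibody units into the polymers IgM and IgA. Igj was at 47.3, 75.9 and 6.74 FPKM in KO, against 0.0609, 0.413 and 0 FPKM in WT. All KO libraries lay above all WT libraries, KO replicate 3 well below the other two. The log2 difference of Igj was 4.74 ± 0.82 (SE, adjusted p = 0.0123). Mzb1, an endoplasmic reticulum protein that helps antibody assembly in marginal zone B cells and plasma cells, was at 32.9, 17.8 and 1.96 FPKM in KO, against 0.225, 0.312 and 0.295 FPKM in WT, with KO replicate 1 the highest. Its mean in KO was 63.3 times that in WT, and the log2 difference was 3.27 ± 0.85 (SE, adjusted p = 0.0381). Tnfrsf17 encodes BCMA, a receptor for plasma cell survival factors. It was at 0.435, 0.434 and 0.111 FPKM in KO, against 0 FPKM in each WT library (log2 difference 0.40 ± 0.10 SE, adjusted p = 0.0358). The KO replicate 1 value was 62.3% to 185% of the KO replicate 2 value over these 3 genes, median 100%. Mzb1 overlaps the coding gene Spata24 on the genome, and how the counting used strand is not given. Spata24 was at 5.56, 3.65 and 5.47 FPKM in KO, against 6.56, 5.80 and 4.65 FPKM in WT, so it did not share the Mzb1 pattern.

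Of the B cell transcription factors and kinases, 1 of 4 was called higher, against 12.7% of all rows. Their summed FPKM in the KO libraries was 297, 499 and 29.8 times a WT mean near 0. Pou2af1, the coactivator OBF-1 that works with Oct factors in B cells and is at chr9:51213708-51240080 on GRCm38, was at 8.10, 11.2 and 0.743 FPKM in KO, against 0.0197, 0 and 0 FPKM in WT. KO lay above WT throughout (log2 difference 2.52 ± 0.70 SE, adjusted p = 0.0459). Pax5, the factor that fixes B cell identity, was at 0.399, 0.803 and 0 FPKM in KO, against 0 FPKM in each WT library and its difference was not called (adjusted p = 0.152). Blk, a kinase of the B cell receptor, was at 1.502, 3.42 and 0.319 FPKM in KO, against 0, 0.0317 and 0.0297 FPKM in WT. KO lay above WT in every library, at a log2 difference of 1.26 ± 0.41 (SE, adjusted p = 0.0687), short of the threshold. Spib, an Ets factor of B cells and plasmacytoid dendritic cells, was at 1.46, 3.87 and 0.0895 FPKM in KO, against 0.0347, 0 and 0 FPKM in WT with an adjusted p = 0.13.

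None of the 6 B cell receptor and surface genes was called by limma. KO was higher at an unadjusted limma p under 0.05 for 5 of the 6, against 19.5% of all rows. Every KO library lay above every WT library for 5, against 22.3% of rows. Cd79b was at 4.90, 14.3 and 0.323 FPKM in KO, against 0, 0.0715 and 0 FPKM in WT (log2 difference 2.27 ± 0.83 SE, adjusted p = 0.0944). Ms4a1, which encodes CD20, was at 3.37, 6.32 and 0.311 FPKM in KO, against 0 FPKM in each WT library (log2 difference 1.80 ± 0.59 SE, adjusted p = 0.0728). Both separated the groups in all libraries, with KO replicate 3 far below its fellows. Cd79a was the exception in WT: it was at 15.8, 27.95 and 7.60 FPKM in KO, against 6.60, 7.42 and 6.74 FPKM in WT, so KO averaged 2.47 times WT (log2 difference 1.03 ± 0.41 SE, adjusted p = 0.119). Its KO replicate 3 value lay just above the highest WT value. Cd79a lies 5.95 Mb from Ffar3 on chromosome 7, where Cd37 and Spib lie 14.4 and 13.7 Mb away. Cd37, a tetraspanin of B cells, was at 5.89, 12.9 and 0.383 FPKM in KO, against 0.462, 0.128 and 0.282 FPKM in WT, with KO replicate 3 inside the WT range. It overlaps Tead2, which was at 1.21, 10.0 and 22.0 FPKM in KO, against 1.78, 1.33 and 1.72 FPKM in WT. Fcer2a, the low-affinity IgE receptor CD23, was at 0.652, 2.44 and 0.493 FPKM in KO, against 0.0624, 0.172 and 0.0546 FPKM in WT (adjusted p = 0.0818). Cr2, complement receptor CD21 of B cells and follicular dendritic cells, never passed 0.242 FPKM in KO and was at 0 in WT (adjusted p = 0.163).

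Of the T cell genes, 1 of 8 was called higher, which is near the 12.7% of all rows. Their median difference was 0.86 on the log2(FPKM + 1) scale, which shrinks differences of low genes such as these. Their summed FPKM was 23.1, 34.1 and 3.57 times the WT mean in the KO libraries. Cd3d, a chain of the T cell receptor complex at chr9:44981786-44987339 on GRCm38, was at 1.105, 1.44 and 0.288 FPKM in KO, against 0 FPKM in each WT library (log2 difference 0.91 ± 0.23 SE, adjusted p = 0.0331). Its neighbour Cd3g, 1.36 kb away, was at 1.44, 1.37 and 0.0705 FPKM in KO, against 0.0430, 0.0400 and 0 FPKM in WT (adjusted p = 0.101), and Cd3e, 11.4 kb away, at 1.30, 2.01 and 0.127 FPKM in KO, against 0 FPKM in each WT library (adjusted p = 0.082). Cd2, an adhesion receptor of T and NK cells, came next to the threshold. It was at 4.38, 5.61 and 0.575 FPKM in KO, against 0.193, 0.0358 and 0.0337 FPKM in WT, 40.2 times higher on average in KO (log2 difference 1.82 ± 0.52 SE, adjusted p = 0.0505). The coreceptor genes were low. Cd4 was at 0.711, 2.41 and 0.132 FPKM in KO, against 0, 0.0118 and 0.0223 FPKM in WT and Cd8a at 0.125, 0.334 and 0 FPKM in KO, against 0 FPKM in each WT library (adjusted p = 0.132 and adjusted p = 0.194). Lck, the kinase that starts T cell receptor signalling, was at 1.68, 2.12 and 0.415 FPKM in KO, against 0.338, 0.353 and 0.333 FPKM in WT (adjusted p = 0.0988), and the surface receptor Cd5 at 0.355, 1.08 and 0.108 FPKM in KO, against 0, 0 and 0.0368 FPKM in WT (adjusted p = 0.125). KO replicate 1 carried a larger part of the replicate 2 level for T cell genes (median 70.7%) than for B cell receptor and surface genes (median 43.4%), a description over 8 and 6 genes with no test.

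Among the homing, cytokine and checkpoint genes, 1 of 6 was called higher, against 12.7% of all rows. Il7r, the receptor for the survival cytokine interleukin-7, was at 0.937, 1.44 and 0.450 FPKM in KO, against 0.184, 0.110 and 0.174 FPKM in WT, 6.05 times higher on average in KO (log2 difference 0.72 ± 0.18 SE, adjusted p = 0.034). Ccr7, which guides T cells and dendritic cells into lymph nodes, was at 7.02, 29.4 and 1.53 FPKM in KO, against 0.376, 0.210 and 0.351 FPKM in WT, with KO replicate 2 far above the rest. KO averaged 40.5 times WT, and the difference missed the threshold (log2 difference 2.70 ± 0.84 SE, adjusted p = 0.0616). Cxcr5, the receptor for the B cell follicle chemokine, was at 2.04, 3.84 and 0.114 FPKM in KO, against 0.0169, 0 and 0.0148 FPKM in WT (adjusted p = 0.103). It overlaps Bcl9l, at 3.67, 4.75 and 4.22 FPKM in KO against 2.20, 2.83 and 2.58 FPKM in WT. Ltb, a lymphotoxin needed to build lymphoid tissue, was at 1.85, 5.32 and 0.158 FPKM in KO, against 0.0495, 0.0921 and 0.0430 FPKM in WT (adjusted p = 0.129), and the inhibitory receptor Btla at 0.495, 1.15 and 0.139 FPKM in KO, against 0.0135, 0.0125 and 0.0118 FPKM in WT (adjusted p = 0.0878). Glycam1 rested on a single library, at 0.283, 21.8 and 0 FPKM in KO, against 0 FPKM in each WT library (log2 difference 1.62 ± 1.16 SE, adjusted p = 0.344).

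Other genes of high endothelial venules and lymphoid stroma had mixed levels. The 8 given here are named after their values were seen, from a list of 22 fitted genes whose counts follow with the further lists. Madcam1, the venule address protein, was at 0.111, 1.78 and 0.167 FPKM in KO, against 0.166, 0.0612 and 0.0861 FPKM in WT. The venule sulfotransferase Chst4 was at 0.0197, 0.0777 and 0 FPKM in KO and at 0 in WT, and Fut7 at 0, 0.219 and 0 FPKM in KO and 0 in WT. Madcam1, Chst4 and Fut7 were highest in KO replicate 2, as Glycam1 was. The stromal chemokines did not share that order: Cxcl13 was at 1.38, 0.275 and 0.421 FPKM in KO, against 0.319, 0.331 and 0.421 FPKM in WT, and Ccl19 at 1.42, 0.860 and 0.131 FPKM in KO, against 0.0763, 0.141 and 0.467 FPKM in WT. The sulfotransferase Chst2 was at 1.0205, 4.81 and 8.50 FPKM in KO, against 1.63, 1.19 and 1.57 FPKM in WT. The adhesion gene Vcam1 was at 2.103, 6.95 and 0.7998 FPKM in KO, against 0.443, 0.535 and 0.463 FPKM in WT, and Icam1 at 5.88, 19.7 and 7.84 FPKM in KO, against 3.94, 4.86 and 4.63 FPKM in WT. None of these 8 was called.

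Of the 3 broader leukocyte and other surface genes, Plac8 and Ly6d were called higher, against 12.7% of all rows. Plac8, a small protein of leukocytes and some epithelia, was at 7.74, 16.1 and 3.07 FPKM in KO, against 0.655, 0.532 and 0.359 FPKM in WT, 17.4 times higher on average in KO (log2 difference 2.49 ± 0.49 SE, adjusted p = 0.0172). Ly6d, a surface protein that marks early B lineage cells and also stratified epithelium, was at 3.71, 9.49 and 3.19 FPKM in KO, against 0.0828, 0 and 0.0724 FPKM in WT (log2 difference 2.49 ± 0.34 SE, adjusted p = 0.00636). Its KO replicate 3 value was the highest of the set relative to KO replicate 2, at 33.6%. Of 10 stratified epithelium genes, 5 were at 0 in all libraries and 2 were called higher: Sprr1a, at 2.88, 18.8 and 12.05 FPKM in KO against 0.139, 0.192 and 0.365 FPKM in WT, and Sfn, at 7.08, 19.3 and 19.0 FPKM in KO against 3.81, 2.82 and 3.23 FPKM in WT. The summed list was 9.96, 38.1 and 31.3 FPKM in KO, against 3.95, 3.01 and 3.59 FPKM in WT, and its part in the Ly6d result was not tested. Cd52, a small glycoprotein of lymphocytes and other leukocytes, was at 16.7, 32.1 and 4.12 FPKM in KO, against 5.85, 3.24 and 4.26 FPKM in WT (adjusted p = 0.159), with KO replicate 3 inside the WT range. It overlaps Crybg2, which was at 0.114, 0.211 and 0.110 FPKM in KO, against 0.160, 0.0935 and 0.0882 FPKM in WT.

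The KO libraries ranked alike across the set. For 27 of the 30 genes KO replicate 2 was highest, then KO replicate 1, then KO replicate 3, with KO replicate 1 above every WT library; 8.06% of all rows did this. The other 3, Mzb1, Tnfrsf17 and Cd3g, were highest in KO replicate 1. The KO replicate 1 value was 48.9% of the KO replicate 2 value at the median (range 1.30% to 185%), and KO replicate 3 was 7.77% (0% to 33.6%). Over the 14852 rows with at least 0.1 FPKM in KO replicate 2, the medians were 99.5% and 101%. Acinar genes were highest in KO replicate 3, then 2, then 1, with summed FPKM of 24707, 244373 and 519813, against 41722, 26497 and 37383 in WT.

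**Figure D3:**
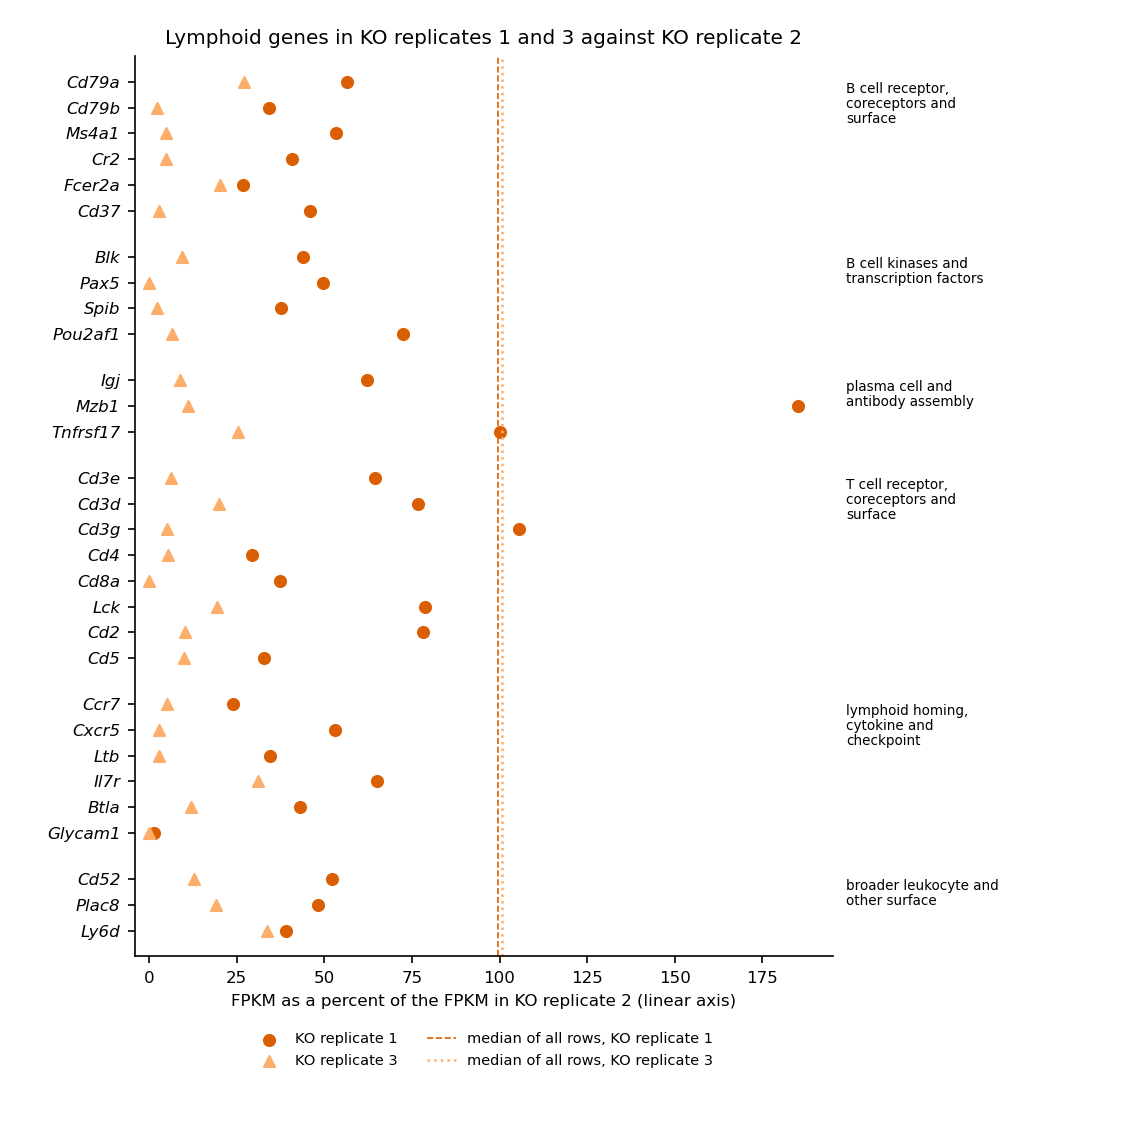
FPKM of each of the 30 genes in KO replicates 1 and 3 as a percent of KO replicate 2, on a linear axis; vertical lines are the medians of all rows with at least 0.1 FPKM in KO replicate 2. KO replicate 3 stays between 0% and 33.6%, and KO replicate 1 passes 100% for Mzb1, Tnfrsf17 and Cd3g.

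Further lists of lymphoid, leukocyte and pancreatic genes were read in the same fit, in which 12.7% of all rows were called higher and 12% lower. Of 32 further B cell genes with a row, 1 was called higher and 0 lower, with a median log2 difference of 0.56; the immunoglobulin genes Ighm, Ighd, Igkc and Iglc1 were not analysed here. The called gene, the adaptor Blnk, was at 4.02, 5.27 and 1.63 FPKM in KO, against 0.618, 0.393 and 0.635 FPKM in WT (adjusted p = 0.0205). Cd74, the invariant chain of antigen presentation and also made by macrophages and dendritic cells, was at 244, 475 and 120.1 FPKM in KO against 184, 145 and 174 FPKM in WT (adjusted p = 0.447). Without KO replicate 3, 19 of these B cell genes were called higher, against 12% of all rows. Without any other library 0 or 1 was called higher, against 4.27% to 16.4% of rows.

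Of 36 further T and NK cell genes fitted, 2 were called higher and 1 lower, against 12.7% and 12% of all rows. Their median was 0.28. Tcf7, a factor of T cell development, was at 2.18, 3.69 and 1.15 FPKM in KO, against 0.0614, 0.0949 and 0.107 FPKM in WT (adjusted p = 0.0122). Gata3, a factor of T helper cells, was at 0.135, 0.277 and 0.103 FPKM in KO and at 0 in WT (adjusted p = 0.0329). Of 15 trafficking receptor genes, S1pr1 and Cxcr3 were called higher and Klf2 lower, against the same shares of all rows, with a median of 0.76. S1pr1, by which lymphocytes leave lymph nodes and which endothelium also makes, was at 12.7, 17.9 and 10.8 FPKM in KO, against 8.51, 6.62 and 7.67 FPKM in WT (adjusted p = 0.0306). Klf2, a factor of quiescent T cells and of endothelium, was at 7.43, 11.5 and 7.86 FPKM in KO, against 20.6, 17.8 and 23.4 FPKM in WT (adjusted p = 0.00846). Without KO replicate 3, 19 T and NK cell genes and 11 trafficking genes were called higher, against 12% of all rows.

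Of 18 further plasma cell and secretory genes, 4 were called higher and 0 lower, against 12.7% and 12% of all rows. Their median was 0.44, and 5 of the 18 followed the lymphoid order of the KO libraries, against 8.06% of rows. Sdc1, the plasma cell marker CD138 that epithelia also make, was at 2.29, 7.44 and 12.9 FPKM in KO, against 0.692, 0.696 and 0.747 FPKM in WT (adjusted p = 0.0289). Derl3, of the pathway that removes misfolded proteins, was at 58.9, 74.8 and 112 FPKM in KO, against 27.2, 20.99 and 24.6 FPKM in WT (adjusted p = 0.0067). The other called genes were Creld2 and Pim2. Sdc1 and Derl3 were highest in KO replicate 3, where the acinar sum was highest too and Igj was lowest among KO libraries; the part of acinar RNA in these 2 values was not tested. Of 22 lymph node stroma, high endothelium and lymphatic genes fitted, 1 was called higher and 2 lower (12.7% and 12% of all rows). Their median was 0.21. The higher one was Gcnt1, an enzyme that builds O-glycans, at 1.29, 2.17 and 2.89 FPKM in KO against 0.525, 0.440 and 0.685 FPKM in WT (adjusted p = 0.0181). The lymphatic genes Lyve1 and Prox1 were the lower ones, Lyve1 at 4.48, 3.81 and 3.91 FPKM in KO against 6.87, 7.14 and 5.99 FPKM in WT (adjusted p = 0.00911) and Prox1 at 8.53, 6.15 and 6.65 FPKM in KO against 11.3, 13.2 and 11.6 FPKM in WT (adjusted p = 0.0131). Prox1 is also expressed in islet and other pancreatic cells. Flt4, Reln and Pdpn of the same list, named after their values were seen, were on the higher side and not called. Their log2 differences were 0.14, 0.15 and 0.31. Of the 22 genes, 17 had a log2 difference above 0.

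Genes shared by lymphoid and myeloid leukocytes and genes of macrophages and dendritic cells were read apart. Of all rows, 12.7% were called higher and 12% lower, and 8.06% had the lymphoid order of the KO libraries. At an unadjusted limma p under 0.05, 19.5% of all rows were higher and 19.8% lower. Of 25 shared leukocyte genes, 3 were called higher and 0 lower, the median was 0.91, and 24 ranked KO replicate 2, then 1, then 3 with replicate 1 above WT; the other gene, Ptpn6, was at 11.7, 12.8 and 9.81 FPKM in KO, against 14.1, 12.9 and 15.2 FPKM in WT. The called ones were Arhgdib, Cd48 and Lcp1. The summed FPKM of all 25 was 95.6, 203 and 34.8 in KO, against 34.3, 31.7 and 36.6 in WT. Of 24 macrophage, dendritic and myeloid genes, 0 were called higher and 1 lower (Cx3cr1), the median was 0.02, and 10 ranked that way; at an unadjusted p under 0.05 in limma 1 was higher and 2 were lower. Lyz2, lysozyme of macrophages and neutrophils, was at 32.9, 94.8 and 10.3 FPKM in KO, against 11.5, 9.51 and 9.92 FPKM in WT (adjusted p = 0.16). C1qa, a complement gene of resident macrophages, was at 50.1, 42.5 and 37.2 FPKM in KO, against 57.3, 51.5 and 58.8 FPKM in WT (adjusted p = 0.0584). The summed myeloid list was 155, 232 and 92.1 FPKM in KO, against 140, 119 and 136 FPKM in WT. Without KO replicate 3, 19 of 25 shared leukocyte and 4 of 24 myeloid genes were called higher, against 12% of all rows. So were 8 of 18 plasma cell and secretory genes and 4 of 22 stroma and venule genes. The difference between these lists was not tested.

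**Figure D4:**
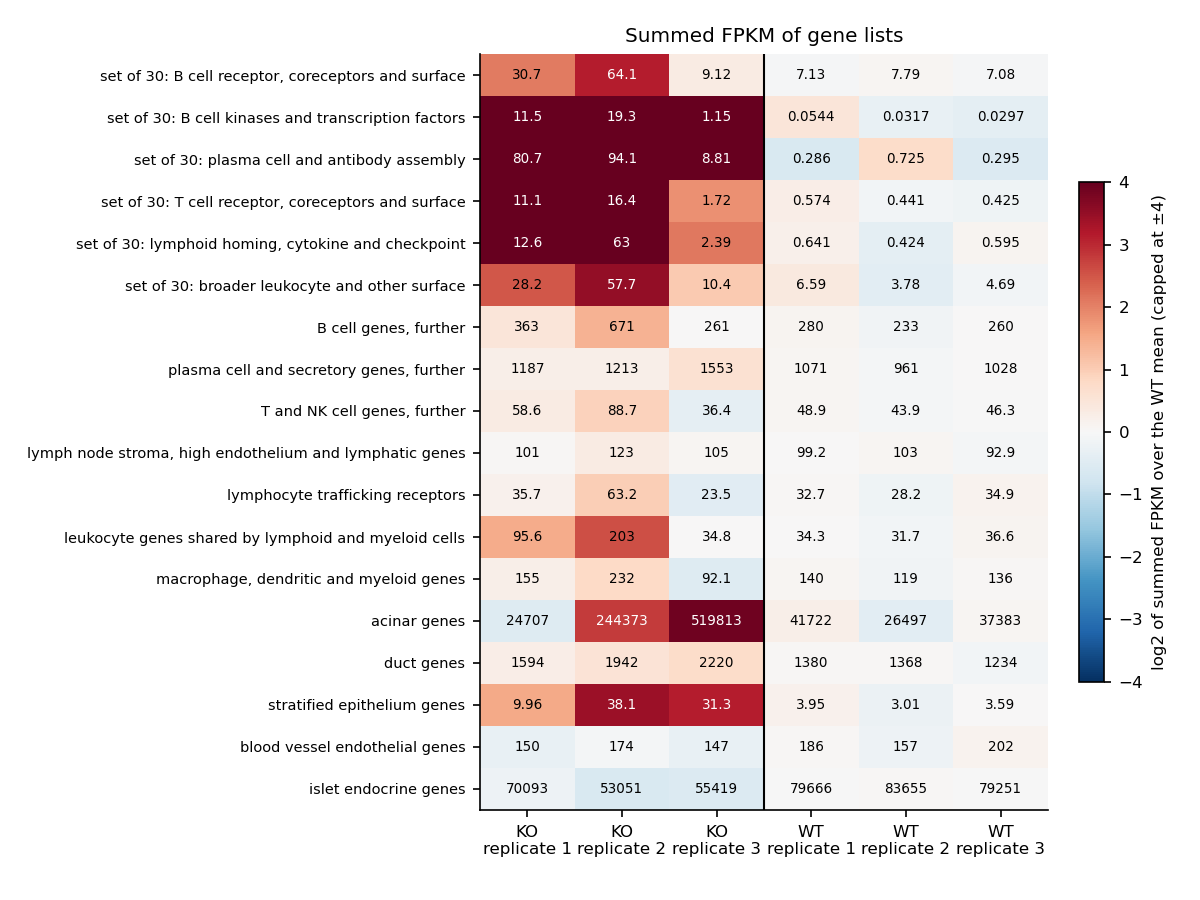
Summed FPKM of each gene list in each library, printed in the cells and coloured by the log2 ratio to the WT mean, with KO left of the black line; "further" lists hold genes outside the 30. Each row of the set of 30 is higher in KO replicates 1 and 2 than in any other library, and the acinar row is highest in KO replicate 3.

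Islet and other pancreatic genes were read as relative RNA levels, which are not counts of cells. Of 20 islet endocrine genes, 0 were called higher and 8 lower, with summed FPKM of 70093, 53051 and 55419 in KO against 79666, 83655 and 79251 in WT. Of 12 duct genes 3 were called higher and 0 lower, and of 20 acinar genes 0 were called either way, at a median log2 difference of 2.07. Of all rows, 12.7% were called higher and 12% lower. At an unadjusted p under 0.05 in limma, 19.5% of all rows were higher and 19.8% lower. By that measure 0 islet endocrine genes were higher and 11 lower, 7 duct genes were higher and 0 lower, and 0 acinar genes passed. In the further lists called lower in 0 genes, 0 B cell, 0 plasma cell and 1 shared leukocyte gene had such a p with KO lower. The part of islet, duct and acinar RNA in the lymphoid result was not tested. With the acinar level as a covariate, 4 of the 30 genes were called higher, against 6.95% of rows. That level, a mean log2(FPKM + 1) of acinar genes, was 8.72, 11.8 and 12.9 in KO, against 9.45, 8.85 and 9.30 in WT. As only KO libraries had high levels, this fit cannot separate the acinar level from genotype.

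Genes most like the B cell genes across the 6 libraries were ranked by Pearson's r between log2(FPKM + 1) and the mean of the 10 B cell genes, over 10167 rows whose highest library reached 2 FPKM. That mean was 1.87, 2.64 and 0.63 in KO, against 0.36, 0.36 and 0.34 in WT. The 12 highest were Arhgap30, Il2rb, Vim, Lsp1, Lax1, Cd53, Irf4, Gpr171, Fcrla, Pyhin1, Tnfrsf13c and Ptpn22, with r of 0.9976 to 0.9997. All but Vim stayed under 1 FPKM in every WT library and so passed the 2 FPKM limit only through KO libraries. Their likeness to a profile highest in KO was thus partly set by that limit. Of the rows compared, 48 had r of at least 0.99 and 198 at least 0.95, a description over 6 libraries that share the same KO ranking. Il2rb, a chain of the interleukin-2 receptor, was at 2.497, 5.75 and 0.330 FPKM in KO, against 0.121, 0.0640 and 0.105 FPKM in WT. Vim, vimentin of leukocytes and stromal cells, was at 19.0, 27.5 and 10.4 FPKM in KO, against 8.78, 8.65 and 8.58 FPKM in WT, and was not called (adjusted p = 0.0708).

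How many of the 30 genes were called higher depended on the libraries and settings. Left out singly, KO replicate 1 left 3 (against 16.4% of rows), KO replicate 2 left 4 (8.26%), WT replicate 1 left 1 (4.4%), WT replicate 2 left 2 (7.28%) and WT replicate 3 left 1 (4.27%). A pseudocount of 0.1 gave 19 (14.0% of rows), array weights 19 (14.2%), quantile normalization 9 (11.3%) and median-of-ratios scaling 8 (12.9%). The median-of-ratios factors ran only from 0.995 to 1.005, so that scaling left the values almost as deposited and could hardly change the count. A robust variance prior gave 6 (13%), equal sums outside acinar and insulin rows 3 (5.35%), a replicate block 3 (8.03%) and a fit of every row 2 (7.01%). With only rows of a mean of at least 1 FPKM, 8 of the 15 genes left were called (20.3%); of these 15, Cd79a and Cd52 alone reached 1 FPKM in any WT library. Ly6d stayed called when any 1 of the 6 libraries was left out. Igj was lost without WT replicate 1 or 3 (adjusted p = 0.0667 and 0.0668), and Plac8 without any 1 WT library (adjusted p = 0.0667 to 0.0817). Each of the other 5 stayed called only without KO replicate 3 and was lost without each of the other 5 libraries. The adjusted p then ran from 0.115 to 0.146 for Pou2af1, 0.0730 to 0.135 for Mzb1, 0.0838 to 0.124 for Tnfrsf17, 0.0851 to 0.120 for Cd3d and 0.0652 to 0.115 for Il7r. The log2 difference was above 0 for every gene under every setting in which it was fitted. These settings reuse the same 6 libraries, and the filters, the robust prior and the replicate block leave the difference itself unchanged.

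**Figure D5:**
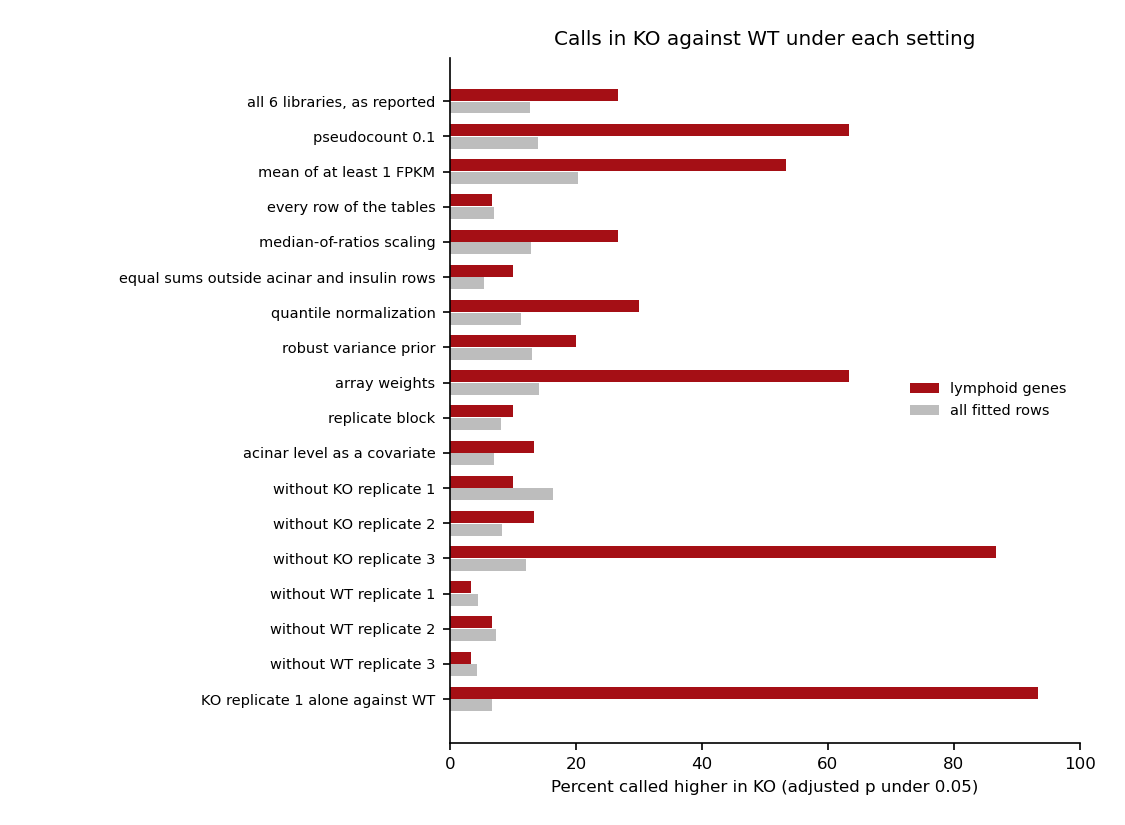
Percent of the 30 genes (15 of them for a mean of at least 1 FPKM) and of all fitted rows called higher in KO under each setting. The setting of KO replicate 1 alone has a single KO library, so its spread is that of WT only. The lymphoid bar reaches 86.7% without KO replicate 3 and falls to 3.33% without WT replicate 1 or 3.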

How the data were processed

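RNA was measured in 3 KO and 3 WT islet libraries, grouped by title and genotype. TopHat2 2.0.8b, Cuffdiff 2.1.1 and build mm10 are named in the submitters' processing notes. The authors deposited values that are read here as FPKM, Cuffdiff's unit, which the files do not name; the sources used here do not give annotation, strand or scaling. FPKM is a relative measure, here with unequal sums between libraries, and splits fragments between overlapping genes by estimate. The 17734 of 23179 rows with a value above 0 in any library were tested as deposited on log2(FPKM + 1), a scale that understates changes of low genes, with limma 3.58.1 in R 4.3.3 (lmFit, eBayes with a trend, two-sided, 4 residual degrees of freedom), Benjamini-Hochberg adjustment over all rows and a threshold of 0.05. No mean filter was used, because it would keep lymphoid genes through their KO values. Adjusted p-values in the text are from this fit unless a setting is named. The script was tested on simulated data.

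The 30 genes and the 14 other lists were chosen with earlier results of these data known, so they are described by counts and medians. All 30 genes may be named; of other lists, the 4 of highest mean and the 4 called genes of smallest adjusted p, and the 12 rows most like the B cell genes (predicted, Rik, small RNA and joined symbols left out). Any other gene is marked where it is named. A few genes of the lists are counted but not reported here by name. Fragments per FPKM were estimated from the most frequent ratio to WT replicate 1 among values below 0.06 FPKM, since total depth is unknown. Gene positions came from GENCODE M21 on GRCm38, which mm10 denotes, and promoters from RefSeq on GRCm38.p6. Alternatives were another pseudocount, filters, scalings and variance models, the replicate number as a block, the acinar level as a covariate, each library left out, and KO replicate 1 alone against WT. Python 3.11.15, pandas 2.3.3 and matplotlib 3.10.9 were used.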

Additional observations from a re-analysis of the deposited data

How the results depend on the processing

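With all 6 libraries 4383 of 17734 rows were called, 2258 higher and 2125 lower in KO, with 8 of the 30 genes higher and 0 lower. In the 7 further lymphoid, leukocyte and myeloid lists, 170 distinct genes were fitted, of which 13 were called higher and 5 lower. The lists thus had a smaller share of genes called higher than all rows did. List counts given below are of genes called higher only. A pseudocount of 0.1 gave 19 and 41 for the 30 genes and the 7 lists, and array weights 19 and 39. Fitting every row gave 1394 rows lower, with 2 and 2. Equal sums outside acinar and insulin rows gave 1923 rows (949 higher, 974 lower), with 3 and 7. The acinar level as a covariate gave 1961 rows (1232 higher, 729 lower), with 4 of the 30 genes. KO replicate 1 alone gave 1515 rows (1170 higher, 345 lower), with 28 and 79. Leaving out 1 library at a time gave 1238 to 5596 rows called, 757 to 2900 higher, 481 to 2696 lower, 1 to 26 of the 30 genes and 1 to 82 in the 7 lists; such fits have fewer samples. For the other settings the cause was not tested. The replicate number as a block gave 2639 rows (1424 higher, 1215 lower), with 3 and 5. Deviations from the group means correlated at -0.19, -0.07 and 0.02 between same-numbered KO and WT libraries, and from -0.14 to 0.19 between differently numbered ones. With 3 libraries per group and KO libraries so unlike each other, this cannot show whether same-numbered libraries were handled together.

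Over 17 alternatives and 495 values of the 30 genes, 378 kept their side of the threshold, 52 lost a call, 65 gained one, and all 495 were above 0. These values come from the same 6 libraries each time and are not separate evidence. Depth limits the genes near 0: WT values there may rest on single fragments, and KO replicate 3 had the fewest fragments per FPKM by the rough scale from low values.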

Other observations

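Lists outside the lymphoid comparison gave these values, beside 12.7% of all rows called higher and 12% called lower. Of 11 blood vessel endothelial genes, 1 was called higher and 2 lower in KO. Cdh5, the endothelial cadherin, was at 9.69, 12.7 and 8.88 FPKM in KO, against 6.11, 5.45 and 6.82 FPKM in WT (adjusted p = 0.0203), while Kdr, a receptor for vascular growth factor, was at 8.72, 11.5 and 11.4 FPKM in KO, against 16.4, 13.2 and 18.5 FPKM in WT (adjusted p = 0.0398). Of 8 proliferation genes, Cdk1 and Plk1 were called higher and 0 lower. Plk1 was at 0.461, 0.665 and 0.385 FPKM in KO, against 0.196, 0.203 and 0.190 FPKM in WT (adjusted p = 0.0223). All 8 were highest in KO replicate 2, the library highest in most lymphoid genes. Of 3 erythroid genes with a row, 0 were called higher and 1 lower: Hbb-bs was at 8.95, 10.5 and 11.6 FPKM in KO, against 22.1, 14.3 and 15.9 FPKM in WT (adjusted p = 0.0321), so the blood marker did not run with the lymphoid genes.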
